A study of Canis lupus familiaris with 6 samples.

Results

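The genes of cholesterol synthesis, uptake, transport and efflux were examined in adipose-derived stem cells of the dog, the stromal precursors of fat cells, after 14 days of adipogenic induction. The group holds 30 genes of the 23299 in the table, picked by gene name for their place in sterol metabolism. It covers 8 enzymes from acetyl-CoA to the isoprenoids, 11 enzymes from squalene synthesis to cholesterol, 4 regulators and 7 genes of transport, storage and efflux. All 30 were present, and 29 passed the filter on low values (a mean of at least 1 on the log2(TPM + 1) scale), which left 12277 genes of the table tested. The sterol transporter gene ABCG1 was the exception.

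The study compared 3 libraries of cells given 1 µM bisphenol A (BPA), a plastic monomer that binds oestrogen receptors, with 3 libraries of cells given the solvent DMSO (called control). From day 2 after plating both groups were kept in medium with 10 µg/mL insulin, 1 µM of the glucocorticoid dexamethasone and 200 nM of the PPARG agonist rosiglitazone. The labels name no strain, sex or age of dog and do not say whether replicates came from separate cultures or animals, so p-values measure only the spread between these libraries, which may be technical.

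Cells make cholesterol from acetyl-CoA through mevalonate, farnesyl diphosphate, squalene and lanosterol. The transcription factor SREBP2, encoded by SREBF2, drives most genes of that route. When sterols are plentiful, INSIG proteins hold SREBP2 and its escort SCAP in the endoplasmic reticulum, and when sterols are scarce SREBP2 moves to the Golgi, is cleaved and enters the nucleus. Sterol excess also yields oxysterols, which activate the LXR receptors and their efflux targets ABCA1, ABCG1 and APOE. Fat tissue is known as a large store of free cholesterol, much of it in the membranes and on the surface of lipid droplets.

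No cholesterol gene passed the test between BPA and control, and the largest separations were in a few genes. For INSIG1 and HMGCS1 all BPA libraries exceeded all control libraries, at log2 changes of 0.45 and 0.32 (SE 0.14 and 0.11). APOE lay lower with BPA, at -0.38 (SE 0.18), with some overlap. For 24 of the 29 tested genes the groups overlapped, while 5.38% of all tested genes lay above and 3.98% below control without overlap. A further set, with SREBF2, SCAP, LSS, DHCR7 and NPC1, varied widely between libraries of the same group, with BPA replicate 3 at the top.

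That library stood apart across the table. On the first principal component of the tested genes, which took 79.8% of the variance, BPA replicate 3 scored 61.1, and the other 5 libraries scored from -29.9 to 11.3. It was the highest or the lowest library for 81.3% of tested genes, and for 22 of the 29 tested cholesterol genes. Markers of the labelled cell type were present: 8 of 9 stromal markers in the table averaged at least 1 TPM (transcript abundance relative to a library total of 1000000), and 7 of 8 adipocyte markers did. The exceptions were NT5E, which encodes the stromal surface protein CD73, and PPARG. Summed stromal markers ran from 12694 to 39700 TPM in BPA libraries, with BPA replicate 3 highest, and from 11916 to 19542 TPM in control libraries. That sum is mostly collagen in BPA replicate 3, with COL1A1 at 24502 TPM, and the list was split there, since LUM, DCN and NT5E had their lowest value in the same library. PDGFRA lay above control in all 3 BPA libraries, at a log2 change of 0.49 (SE 0.16), while the other stromal markers overlapped between groups. Summed adipocyte markers ran from 636 to 898 TPM in BPA libraries, with BPA replicate 3 lowest, and from 609 to 720 TPM in control libraries. LPL and LEP make up most of that sum, and its overlap hides other members. ADIPOQ, FABP4, PLIN1 and CIDEC were higher in all 3 BPA libraries than in any control library, which held for 5.38% of all tested genes. Their log2 changes were 1.55, 1.18, 1.35 and 1.26 (SE 0.26, 0.39, 0.40 and 0.18), with an adjusted p of 0.901 each by limma. Like PDGFRA, these markers lay on the same side as INSIG1 and HMGCS1. LEP lay below control in all 3 BPA libraries, at -0.24, while LPL and CEBPA overlapped between groups. Smooth muscle and pericyte markers summed higher than adipocyte markers, to 1699 to 2542 TPM in BPA libraries and 1990 to 2367 TPM in control libraries. ACTA2 made up most of that sum. CNN1 lay below control in all 3 BPA libraries, at -0.30 (SE 0.12), while ACTA2, MYH11, CSPG4 and MCAM overlapped. No endothelial or epithelial marker averaged 1 TPM. The part of these shifts in the results was not tested, and in bulk RNA fewer cells of a type cannot be told from less RNA per cell.

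The levels of the 30 genes covered a wide range in TPM, a unit that is already corrected for transcript length. NPC2, APOE and INSIG1 were the most abundant, with means over all 6 libraries of 498, 440 and 369 TPM. HMGCS1 followed at 151 TPM and was the most abundant of these enzymes. The regulators SREBF2 and SCAP, by contrast, averaged 9.65 and 3.38 TPM, and SCAP was the lowest of the tested genes in the group. ABCG1 lay near 0 in every library.

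**Figure D1:**
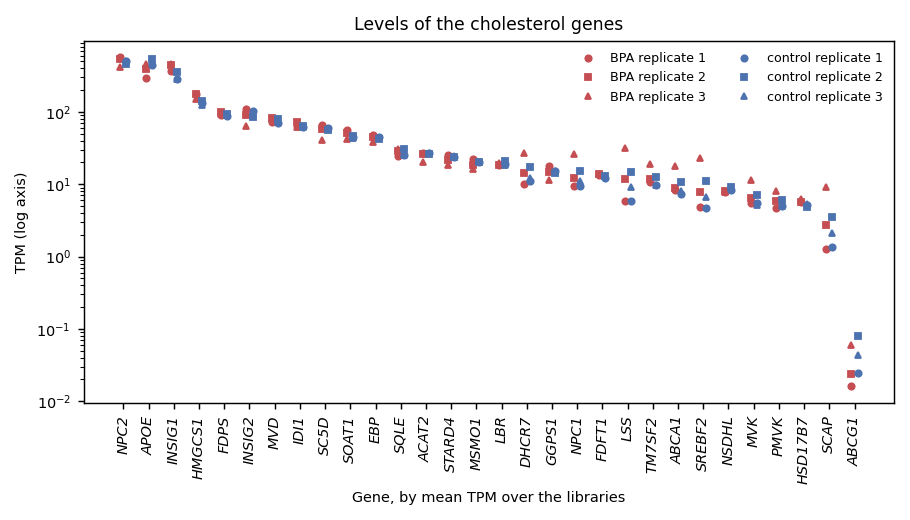
TPM of the 30 cholesterol genes on a log axis, ordered by the mean over all libraries. Each point is 1 library, with BPA in red and control in blue and a marker shape for each replicate number. NPC2, APOE and INSIG1 stand at the top and ABCG1 near 0, and BPA replicate 3 lies above the other libraries for genes such as LSS, SREBF2 and SCAP.

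As a list, the genes lay slightly above control. The log2 change was positive for 20 of 29 tested members and negative for 9, with a median of 0.08, beside a positive change in 56.6% of all tested genes and a median of 0.03. By limma with Benjamini-Hochberg adjustment over all tested genes, 0 members passed at 0.05, and 0% of the 12277 genes did. The smallest adjusted p among the members was 0.901. An unadjusted p under 0.05 was reached by 2 members on the higher and 0 on the lower side, against 1.87% and 1.70% of all tested genes. Every BPA library lay above every control library for 4 members, where 5.38% of all tested genes did so, and below for 1 member, where 3.98% did.

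These counts changed when BPA replicate 3 was left out. Without it, 15 members were above control and 14 below, with a median of 0.02. Over all tested genes 57.6% were above control, with a median of 0.02. The sign turned in 11 of 29 members, near the 40.9% of all tested genes. By unadjusted p under 0.05 it left 3 members on the higher and 1 on the lower side, against 3.34% and 2.23% of all tested genes, and 0 members passed after adjustment, against 0.00815%. Without overlap there were 7 members above and 3 below, against 14.5% and 6.55% of all tested genes.

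**Figure D2:**
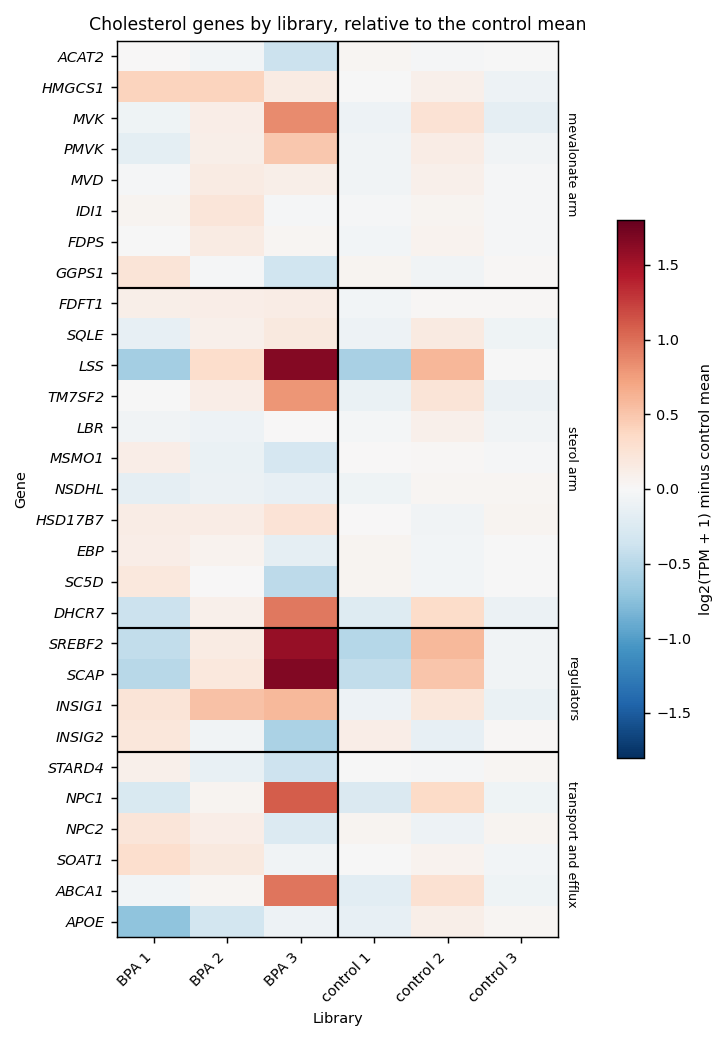
log2(TPM + 1) of the 29 tested cholesterol genes in each library, minus the mean of the 3 control libraries. Rows are genes grouped by role, columns are libraries, red is above and blue below the control mean. The darkest cells are in BPA replicate 3, for LSS, SREBF2 and SCAP, while HMGCS1 and INSIG1 are red in all 3 BPA columns.

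Among the regulators, INSIG1 separated the groups. INSIG1 retains the SCAP and SREBP2 complex in the endoplasmic reticulum, and its gene is itself a target of SREBP2. Its level was 365, 447 and 466 TPM in BPA replicates 1, 2 and 3, against 290.0, 358 and 285 TPM in control replicates 1, 2 and 3. The lowest BPA library thus stood just above the highest control library, control replicate 2. Means were 426 ± 53.7 TPM in BPA libraries and 311 ± 40.9 TPM in control libraries (SD, n = 3 each). By limma its log2 change of 0.45 (SE 0.14) had an unadjusted p of 0.0204 and an adjusted p of 0.901, which ran over the alternatives from 0.409 to 1.00. The log2 change lay between 0.38 and 0.56 in every alternative that was run.

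INSIG2, the paralogue with the same retaining role, did not follow INSIG1. It was at 108, 89.9 and 63.0 TPM in BPA replicates 1, 2 and 3, against 102, 84.8 and 95.4 TPM in control replicates 1, 2 and 3. The groups overlapped, and BPA held both the highest and the lowest library. The log2 change was -0.14 (SE 0.21), and 0.07 (SE 0.12) without BPA replicate 3. Within a library, the ratio of INSIG1 to INSIG2 in TPM was 3.37, 4.97 and 7.40 in BPA replicates 1, 2 and 3. It was 2.85, 4.23 and 2.99 in control replicates 1, 2 and 3, so the ratios overlapped through control replicate 2. The ratio was chosen after the values were seen.

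SREBF2 and SCAP, the transcription factor gene and that of its escort, varied widely between libraries of the same group. SREBF2 stood at 4.88, 7.87 and 22.9 TPM in BPA replicates 1, 2 and 3, against 4.64, 11.0 and 6.65 TPM in control replicates 1, 2 and 3. SCAP stood at 1.28, 2.69 and 9.29 TPM in the same BPA libraries, against 1.37, 3.56 and 2.10 TPM in the control libraries. For both genes BPA replicate 3 was highest, control replicate 2 came next, and replicate 1 of each group was low. INSIG1 also had its highest BPA value in replicate 3 and its highest control value in replicate 2, with smaller gaps on the log2 scale. The log2 changes of SREBF2 and SCAP, 0.42 (SE 0.57) and 0.46 (SE 0.58), were smaller than their standard errors. Without BPA replicate 3 both turned to -0.15 (SE 0.36 and 0.35). The median over the 4 regulators was 0.44 with all libraries and -0.04 without BPA replicate 3.

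**Figure D3:**
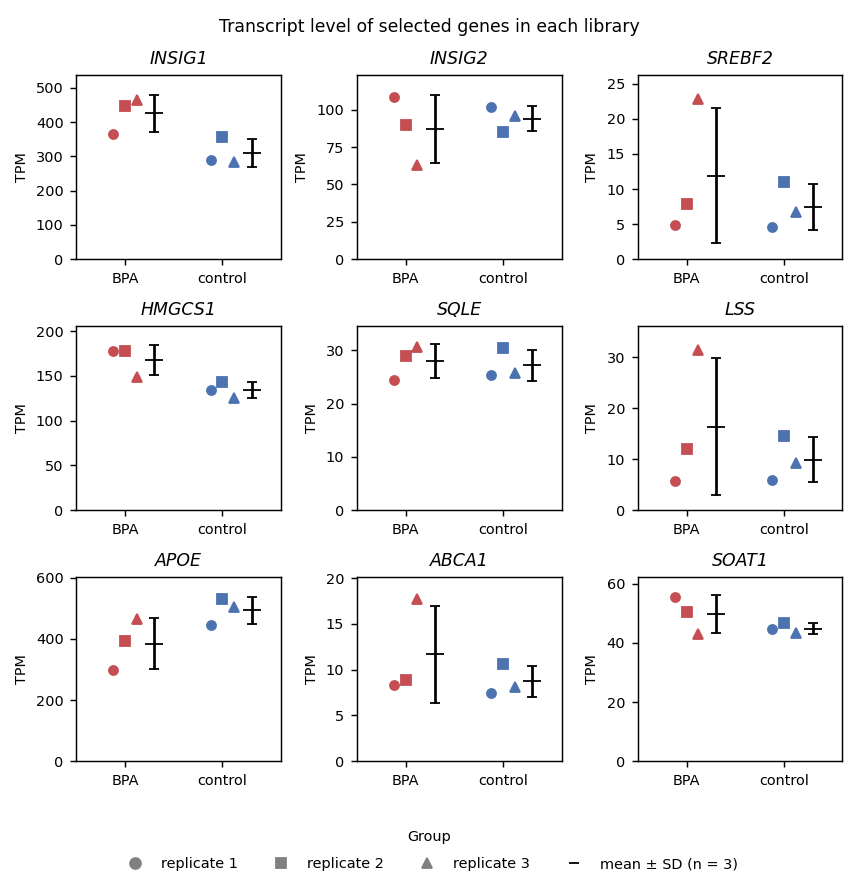
TPM of 9 cholesterol genes by group, BPA on the left and control on the right of each panel, with axes from 0. Points are libraries, shaped by replicate number, and bars are mean ± SD (n = 3). INSIG1 and HMGCS1 do not overlap between groups, while SREBF2, LSS and ABCA1 have 1 high BPA library, replicate 3.

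In the mevalonate arm, HMGCS1 stood out. This enzyme condenses acetoacetyl-CoA with acetyl-CoA to HMG-CoA, at the entry to the route, and is a classical SREBP2 target. Its level was 178, 178 and 149 TPM in BPA replicates 1, 2 and 3, against 134, 143 and 126 TPM in control replicates 1, 2 and 3. BPA replicate 3 was the closest to control, and the groups did not overlap. Means were 168 ± 16.7 TPM in BPA libraries and 134 ± 8.93 TPM in control libraries (SD, n = 3 each). By limma its log2 change of 0.32 (SE 0.11) had an unadjusted p of 0.0274 and an adjusted p of 0.901, which ran over the alternatives from 0.409 to 1.00. Without BPA replicate 3 it was 0.40 (SE 0.08), with an unadjusted p of 0.00361 and an adjusted p of 0.578 by limma.

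HMGCS1 also took a larger share of the arm's transcripts in each BPA library. It made up 38.6%, 36.4% and 34.2% of the summed TPM of the 8 genes in BPA replicates 1, 2 and 3, against 32.8%, 32.9% and 31.2% in control replicates 1, 2 and 3. A single scaling factor per library leaves this share unchanged, but quantile normalization can change it. The share was chosen after the values were seen and uses the same HMGCS1 values, so it is no separate support. The summed TPM of the arm was 460, 487 and 435 in BPA libraries and 408, 436 and 402 in control libraries, with an overlap of BPA replicate 3 and control replicate 2.

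The other enzymes of this arm overlapped between groups. ACAT2, the thiolase that makes acetoacetyl-CoA, was at 27.0, 26.0 and 20.3 TPM in BPA replicates 1, 2 and 3, against 27.5, 26.4 and 26.8 TPM in control replicates 1, 2 and 3, a log2 change of -0.14 (SE 0.13). The BPA value that lay apart was replicate 3, and without it the change was -0.02 (SE 0.07). The kinase gene MVK had 5.52, 6.41 and 11.4 TPM with BPA, against 5.42, 7.21 and 5.10 TPM in control, and its log2 change was 0.30 (SE 0.27). Without BPA replicate 3, again the library that stood apart, it was 0.02 (SE 0.16). PMVK, the next kinase, ran from 4.64 to 7.94 TPM with BPA and from 5.06 to 5.97 TPM in control.

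MVD, IDI1 and FDPS, which form isopentenyl, dimethylallyl and farnesyl diphosphate, were steady between libraries. MVD averaged 79.0 ± 5.11 TPM in BPA libraries and 74.7 ± 4.14 TPM in control libraries (SD, n = 3 each). IDI1 averaged 66.5 ± 5.88 and 62.7 ± 1.83 TPM, and FDPS 94.6 ± 5.51 and 90.6 ± 3.58 TPM, in BPA and control libraries. Their log2 changes of 0.08, 0.08 and 0.06 were each below a standard error of 0.08 to 0.09. GGPS1, which makes the geranylgeranyl groups attached to proteins, ran from 11.4 to 17.7 TPM with BPA and from 14.2 to 15.5 TPM in control. Over the 8 tested genes of the arm, 6 lay above control and 2 below, with a median log2 change of 0.08.

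In the sterol arm, 3 genes did not overlap between groups, each by a small margin. Of all tested genes, 5.38% lay above and 3.98% below control without overlap. FDFT1, the squalene synthase, was at 13.6, 13.9 and 14.0 TPM in BPA replicates 1, 2 and 3, against 12.2, 12.9 and 12.8 TPM in control replicates 1, 2 and 3. HSD17B7, a ketoreductase of sterol demethylation, was at 5.71, 5.73 and 6.26 TPM in BPA libraries, against 5.15, 4.89 and 5.34 TPM in control libraries. NSDHL, the dehydrogenase of the same demethylation, was at 7.77, 8.14 and 7.91 TPM in BPA libraries, against 8.33, 9.08 and 9.09 TPM in control libraries. FDFT1 and HSD17B7 were thus higher in all 3 BPA libraries and NSDHL lower. The log2 changes were 0.12 (SE 0.08), 0.17 (SE 0.09) and -0.14 (SE 0.09), with unadjusted p of 0.192, 0.106 and 0.167 and an adjusted p of 0.901 each by limma.

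SQLE, the squalene epoxidase and a rate-limiting step after mevalonate, showed no separation. Its level was 24.4, 28.9 and 30.6 TPM in BPA replicates 1, 2 and 3, against 25.3, 30.5 and 25.7 TPM in control replicates 1, 2 and 3. The log2 change was 0.04 (SE 0.13) and turned to -0.03 (SE 0.12) without BPA replicate 3. LSS, which closes squalene epoxide into lanosterol, varied most between libraries of this arm, at 5.79, 11.9 and 31.5 TPM with BPA and 5.88, 14.6 and 9.27 TPM in control. BPA replicate 3 lay 1.79 above the mean of the other BPA libraries on the log2(TPM + 1) scale, and control replicate 2 lay 0.89 above the other control libraries.

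DHCR7 and TM7SF2 followed LSS with smaller gaps. DHCR7, the reductase that yields cholesterol, was at 9.96, 14.3 and 26.7 TPM in BPA replicates 1, 2 and 3, against 11.2, 17.1 and 12.3 TPM in control replicates 1, 2 and 3. TM7SF2, a reductase that acts on sterol intermediates, was at 10.6, 11.6 and 19.1 TPM in BPA libraries, against 9.76, 12.6 and 9.80 TPM in control libraries. In both genes BPA replicate 3 was highest and control replicate 2 second. LBR, a nuclear membrane protein with the same reductase activity as TM7SF2, did not share that range, at 18.4 to 19.7 TPM with BPA and 18.8 to 21.0 TPM in control.

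MSMO1, EBP and SC5D, a methyl oxidase, an isomerase and a desaturase of the late route, had their lowest value in BPA replicate 3. SC5D was at 65.2, 57.6 and 41.0 TPM in BPA replicates 1, 2 and 3, against 59.2, 55.6 and 57.2 TPM in control replicates 1, 2 and 3. MSMO1 ran from 16.4 to 22.2 TPM with BPA and from 20.1 to 20.6 TPM in control, and EBP from 38.7 to 47.3 and from 42.0 to 45.1 TPM. For each of them the BPA libraries spread to both sides of control. Enzymes of 1 arm therefore stood at opposite ends in the same library, LSS and DHCR7 at the top and SC5D, EBP and MSMO1 at the bottom. Over the 11 genes, 7 lay above control and 4 below, with a median log2 change of 0.04.

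**Figure D4:**
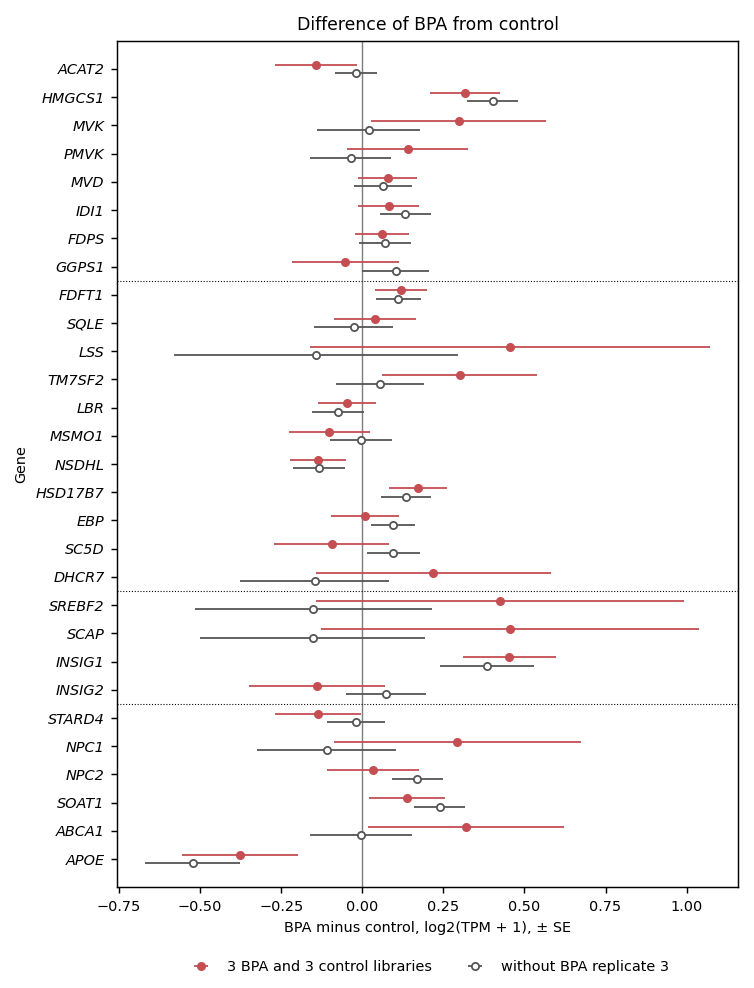
Difference of BPA from control on the log2(TPM + 1) scale with its standard error, for the 29 tested cholesterol genes by role. Filled points use 3 BPA and 3 control libraries, open points leave out BPA replicate 3. INSIG1 and HMGCS1 lie to the right and APOE to the left of 0 in both, while SREBF2, SCAP, LSS, DHCR7 and NPC1 cross 0.

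Among the transport and efflux genes, APOE had the largest difference. Apolipoprotein E is a secreted lipid carrier that accepts cellular cholesterol and is made by macrophages and adipocytes as well as liver. Its level was 299, 392 and 464 TPM in BPA replicates 1, 2 and 3, against 446, 531 and 504 TPM in control replicates 1, 2 and 3. BPA replicates 1 and 2 lay below every control library, and BPA replicate 3 lay above control replicate 1. Means were 385 ± 82.9 TPM in BPA libraries and 494 ± 43.96 TPM in control libraries (SD, n = 3 each). By limma its log2 change of -0.38 (SE 0.18) had an unadjusted p of 0.0813 and an adjusted p of 0.901, which ran over the alternatives from 0.411 to 1.00. Without BPA replicate 3 it was -0.52 (SE 0.15), with an unadjusted p of 0.0158 and an adjusted p of 0.809 by limma.

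Macrophage markers were scarce beside it. Of 6 such markers in the table, 3 averaged at least 1 TPM, and their sum ran from 31.0 to 51.9 TPM in BPA libraries and from 28.2 to 39.5 TPM in control libraries. PTPRC, the pan-leukocyte marker CD45, reached at most 0.00656 TPM in any library. CD14 made up most of the sum, at 25.6, 34.5 and 41.5 TPM in BPA replicates 1, 2 and 3, against 23.2, 29.7 and 20.2 TPM in control replicates 1, 2 and 3. By mean difference CD68, CSF1R, MRC1 and TYROBP lay on the side of APOE, but not library by library. CD68 was at 3.41, 2.78 and 8.10 TPM in BPA libraries, against 4.99, 6.88 and 5.46 TPM in control libraries, so BPA replicates 1 and 2 lay below every control library as they did for APOE. In BPA replicate 3, however, CD68 lay above every control library, and APOE did not. CSF1R lay below control in all 3 BPA libraries, with a log2 change of -0.19 (SE 0.11), and the near-absent MRC1 and TYROBP had negative differences too. TYROBP was still highest in BPA replicate 1, at 0.236 TPM, the library where APOE was lowest. The part of these markers in the APOE values was not tested.

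ABCA1, which passes cholesterol to lipid-poor apolipoproteins, was at 8.32, 8.91 and 17.8 TPM in BPA replicates 1, 2 and 3, against 7.42, 10.6 and 8.14 TPM in control replicates 1, 2 and 3. Its log2 change of 0.32 (SE 0.30) rested on BPA replicate 3, and without that library it was -0.0032 (SE 0.16). ABCG1, which loads cholesterol onto lipoprotein particles, was at 0.0160, 0.0241 and 0.0608 TPM in BPA libraries and 0.0242, 0.0798 and 0.0438 TPM in control libraries. These values are too near 0 to order the groups. The LXR targets APOE and ABCA1 thus had log2 changes of opposite sign with all libraries.

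NPC1 and NPC2 together export cholesterol from the lysosome, NPC2 as the soluble carrier and NPC1 as the membrane protein. NPC1 was at 9.47, 12.1 and 26.0 TPM in BPA replicates 1, 2 and 3, against 9.52, 15.1 and 10.9 TPM in control replicates 1, 2 and 3. NPC2 was at 572, 532 and 414 TPM in BPA libraries, against 507, 458 and 507 TPM in control libraries. BPA replicate 3 was the highest library for NPC1 and the lowest for NPC2, and both genes overlapped between groups. Their log2 changes were 0.29 (SE 0.38) and 0.03 (SE 0.14).

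SOAT1, which esterifies cholesterol for storage in droplets, was at 55.7, 50.6 and 42.9 TPM in BPA replicates 1, 2 and 3, against 44.6, 46.7 and 43.2 TPM in control replicates 1, 2 and 3. BPA replicates 1 and 2 lay above every control library and BPA replicate 3 below every one. The log2 change was 0.14 (SE 0.12), and 0.24 (SE 0.08) without BPA replicate 3, with an unadjusted p of 0.0277 and an adjusted p of 0.837 by limma. STARD4, a cytosolic sterol carrier, ran from 18.4 to 25.7 TPM with BPA and from 23.7 to 24.7 TPM in control. Of the 6 tested genes in this role, 4 lay above control and 2 below, with a median of 0.09, and of -0.01 without BPA replicate 3.

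Further genes of the pathway, from a list of sterol enzymes, regulators, receptors, carriers and oxysterol enzymes, showed the same pattern of few separations. There were 45 such genes with values and 37 of them tested. Of these, 30 lay above control and 7 below, with a median log2 change of 0.15 (all tested genes: 56.6% above, median 0.03). BPA replicate 3 was the highest library for 24 of the 37, against 38.9% of all tested genes. Without it 21 lay above control and 16 below, with a median of 0.02 (all tested genes: 57.6% above, median 0.02). By limma 0 passed. An unadjusted p under 0.05 was found for 4 on the higher and 0 on the lower side (background 1.87% and 1.70%). Without BPA replicate 3 it was found for 4 and 1 (background 3.34% and 2.23%). The 1 lower gene was VLDLR, at -0.21 without that library and -0.11 (SE 0.12) with all libraries.

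In all 4 genes on the higher side the BPA libraries lay above control without overlap, which held for 5.38% of all tested genes. CYP27A1, the mitochondrial sterol hydroxylase that makes an LXR-activating oxysterol, was at 30.5, 34.6 and 38.9 TPM in BPA replicates 1, 2 and 3, against 24.7, 26.9 and 22.0 TPM in control replicates 1, 2 and 3. Its log2 change was 0.48 (SE 0.13). CD36, a scavenger receptor for fatty acids and modified lipoproteins, was at 2.63, 2.68 and 1.13 TPM in BPA libraries and 0.665, 1.04 and 0.561 TPM in control libraries. Its log2 change was 0.81 (SE 0.25), and its mean of 1.21 on the log2(TPM + 1) scale was near the filter of 1. TMEM97, an endoplasmic reticulum protein that binds NPC1, averaged 76.4 ± 2.04 TPM in BPA libraries and 62.7 ± 5.04 TPM in control libraries (SD, n = 3 each), with a log2 change of 0.28 (SE 0.09). FAXDC2, of the fatty acid hydroxylase family, averaged 28.7 ± 0.997 and 24.4 ± 1.08 TPM in BPA and control libraries. By limma the adjusted p was 0.901 for each.

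The LXR gene NR1H3 was at 5.48, 5.78 and 6.33 TPM in BPA replicates 1, 2 and 3, against 6.90, 7.44 and 6.22 TPM in control replicates 1, 2 and 3, a log2 change of -0.19 (SE 0.11). BPA replicate 3 and control replicate 3 made the groups overlap. SREBF1, which encodes the lipogenic relative of SREBP2, was at 12.1, 22.9 and 73.1 TPM in BPA libraries and 9.52, 28.7 and 16.0 TPM in control libraries. It had the library order of SREBF2, and its log2 change of 0.71 (SE 0.71) was 0.02 without BPA replicate 3.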

How the data were processed

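Expression came as 1 table of log2 values deposited by the authors for 6 libraries and named as normalized log TPM. Since 2 raised to each value, minus 1, summed to 1000000 in each column, values were read as log2(TPM + 1). Per the labels' protocols, libraries were stranded and made from messenger RNA. Which aligner, counter, build and annotation were used is not given in the sources used here, so no coordinates are printed. TPM keeps no depth, so depth is unknown and no counting interval is given. BPA and control were compared with limma 3.58.1 in R 4.3.3 (trended empirical Bayes, two-sided, no covariate, Benjamini-Hochberg) on genes with a mean of at least 1. The test was checked on simulated data in which genes varied independently. That check did not cover shifts shared across a library, as seen in BPA replicate 3. Fold changes on this scale understate changes of low genes. Members and lists were chosen with earlier results of these data known. Values by library are given for the 10 tested members of smallest p and a fixed set (SREBF2, INSIG1, HMGCS1, SQLE, ABCA1, APOE), and for further members chosen after their values were seen. Of the further pathway genes, those at an unadjusted p under 0.05 with all libraries or without BPA replicate 3, NR1H3 and SREBF1 are named. All 30 symbols matched a RefSeq gene table of the assembly UU_Cfam_GSD_1.0, used for names only. Promoter and protein sequences were not used here. Alternatives covered the filter, pseudocount, scaling, empirical Bayes settings, replicate block, threshold and each library left out.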

Additional observations from a re-analysis of the deposited data

How the results depend on the processing

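No cholesterol gene passed under any alternative that was run, including a threshold of 0.1. Among all genes, 3 were called higher and 3 lower without a filter, 1 lower without BPA replicate 3, and 2 lower without BPA replicate 3 and control replicate 2, a pair left out after seeing the data. Leaving out each library in turn moved the median log2 change from 0.03 to 0.12 in the mevalonate arm, -0.0035 to 0.13 in the sterol arm, -0.04 to 0.71 in the regulators and -0.011 to 0.095 in transport and efflux. It gave 0 to 3 members higher and 0 to 1 lower at an unadjusted p under 0.05. There were 0 higher without BPA replicate 2, control replicate 1 or control replicate 3, 1 without BPA replicate 1, and 3 without BPA replicate 3. Of all 12277 tested genes, 272, 189, 176, 949 and 684 reached that p in either direction in these settings, in the same order. The pair left out together gave 24 of 29 members above control (63.9% of all tested genes). By unadjusted p under 0.05 it gave 3 members higher and 1 lower (APOE), against 721 of the 12277 tested genes in either direction. Quantile normalization left 1 member higher (INSIG1, as HMGCS1 had an unadjusted p of 0.0698 by limma), put the sterol arm at -0.042 and SQLE at -0.042, and left 43.2% of all tested genes above control, against 56.6%. SREBF2, SQLE and ABCA1 changed sign when a library was left out, with log2 changes from -0.15 to 0.86, -0.027 to 0.13 and -0.0032 to 0.50. The replicate block gave 0 calls and 1 member lower at an unadjusted p under 0.05, APOE (0.04996 by limma). Of all tested genes, 264 reached that p in either direction with the block, and 331 with quantile normalization. The replicate numbers were not taken as pairs, since deviations of same-numbered libraries correlated at 0.72, -0.44 and -0.23 across genes, and BPA replicate 3 correlated best with control replicate 2 (0.79). The cause of these shifts was not tested. The unknown depth limits statements on ABCG1 most.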
